A study of Mus musculus with 65 samples.

Results

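Transcripts of 35 lysosomal genes were measured in mouse bone marrow derived dendritic cells and in RAW264.7 cells, a mouse macrophage line. The genes were taken by symbol from the gene count table, and all 35 were found among its 23755 genes. They comprise 9 genes of cathepsins and legumain, 6 of glycosidases, 4 of other hydrolases or their cofactor, 4 of lysosomal membrane proteins, the transcription factor gene Tfeb, and 11 of the proton pump (6 of the membrane sector V0 with its accessory protein, 5 of the cytosolic sector V1). The list was fixed by symbol, with earlier results of these data known.

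The lysosome is the acidic compartment in which cells break down proteins, glycans and lipids. Its acidity comes from the vacuolar ATPase, a rotary pump whose V1 sector splits ATP and whose V0 sector carries protons across the membrane. TFEB is a transcription factor that binds E-boxes near many lysosomal genes and is held in the cytosol when the kinase complex mTORC1 is active. In dendritic cells, lysosomal proteases also cut antigens and the invariant chain for presentation on MHC class II.

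The unstimulated experiment held 3 libraries each of C57BL/6 dendritic cells that were wild type, Suv39h1KO, IfnarKO or Suv39h1KO IfnarKO. The LPS experiment held dendritic cells of the same strain at 0 h, 2 h and 4 h of 100 ng/mL lipopolysaccharide (LPS, the ligand of the receptor TLR4). It had 6, 5 and 6 wild-type libraries (WT), 3 of MyD88KO and 3 of TrifKO cells per time, all with wild-type Suv39h1 and Ifnar. MyD88 and TRIF are the adaptors of the signalling branches of TLR4. The RAW264.7 experiment (BALB/c background) had 3 libraries each with a control guide RNA, guide 1 or guide 2, at 0 h and 2 h of LPS, all without a knockout in the labels. Its LPS dose is not given separately, and neither are the guides' target genes. Titles of these libraries begin as those of dendritic cells do, and RAW264.7 is taken from the source label. The labels do not say how the knockouts were made, nor whether replicates are separate animals or cultures beyond calling them biological replicates, and p-values measure the spread between these libraries.

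Total gene counts per library ran from 36.9 M to 95.3 M (M, 1000000 counts), and the median was 54.7 M. All 10 conventional dendritic cell markers averaged over 1 CPM (counts per 1000000, scaled by TMM) in each dendritic cell group, and their summed level was 10845 to 20049 CPM in group means against 102 to 257 in RAW264.7 groups, where Flt3, Dpp4, Cd209a and H2-Ab1 were at or near 0. Of the 9 macrophage markers, 4 averaged under 1 CPM in RAW264.7 groups at 0 h (Mertk, Mrc1, C1qa and C1qb), and all but Mrc1 of these also at 2 h. Granulocyte markers summed to 302 to 649 CPM in dendritic cell group means and to under 1 in RAW264.7 groups. The conventional dendritic cell sum itself moved with LPS, with WT means of 12477, 17272 and 20049 CPM at 0 h, 2 h and 4 h. Other markers moved with LPS in WT cells: the 4 plasmacytoid markers summed to 135 to 191 CPM at 0 h and 524 to 939 CPM at 4 h, with Siglech under 1 CPM, and the 6 mast cell and basophil markers to 20.1 to 37.6 and 55.6 to 186 CPM, with Ms4a2 and Fcer1a under 1 CPM. The part of these markers in the LPS results was not tested. Of the targeted genes, Suv39h1 was 0.11 to 0.37 CPM in its knockouts against 36.9 to 64.6 CPM in the other libraries of that experiment, while transcripts of Ifnar1 and Myd88 remained and do not check those labels. Ticam1 (the gene of TRIF) lay in the WT range in the libraries labelled TrifKO replicates 1 and 2 and at 0 h of replicate 3 (29.8 to 50.3 CPM), and at 2.94 and 2.46 CPM at 2 h and 4 h of replicate 3, whereas the interferon target Cxcl10 at 4 h was 21.9 to 89.2 CPM in all 3 libraries labelled TrifKO against 2145 to 3980 CPM in WT. Xist, which is transcribed from the inactive X, changed between times under each TrifKO number: it measured 0, 0 and 1233 CPM at 0 h, 2 h and 4 h in replicate 1, 1091, 1203 and 0.04 CPM in replicate 2 and 1010, 0.02 and 0 CPM in replicate 3. All 3 TrifKO numbers thus hold libraries that differ in Xist. Values for TrifKO members are given also without the library labelled TrifKO 0 h replicate 3, the library whose Ticam1 level stands apart from the others of its number, and what these mismatches add to the results was not tested. Over all genes that library lay close to TrifKO 0 h replicates 2 and 1 (chi-square per gene between libraries 6.53 and 20.9). Replicate 3 at 2 h and 4 h lay far from replicates 1 and 2 of the same time (194 to 253). Leaving out the 0 h library thus does not test those unlike libraries. Wild-type libraries of the LPS experiment fall into a set with lower and a set with higher library numbers; MyD88KO libraries carry the lower and TrifKO libraries the higher numbers, and values within each set are given where it matters. In bulk RNA, fewer cells of a type and less RNA per cell cannot be told apart.

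At rest, the protease and lipid-cofactor genes were among the most abundant transcripts of dendritic cells. Per kilobase of merged exons (GENCODE mouse release 21), Psap, which encodes the precursor of the saposins that help enzymes reach sphingolipids, averaged 2681 ± 615 CPM per kb (SD, n = 6) in WT cells at 0 h and ranked 5 of 22992 genes. Ctsd, the gene of the aspartic protease cathepsin D, followed at 1420 ± 550 CPM per kb (rank 16). Ctss, whose product cathepsin S cuts the invariant chain, lay at 1282 ± 218 (rank 23) and Ctsz, a carboxypeptidase gene, at 737 ± 138 (rank 41). The order of Ctsd and Ctss does not stand beyond their spread. The membrane glycoprotein gene Lamp1 lay at 358 ± 56.9 CPM per kb. The least abundant members were Gaa, the gene of acid alpha-glucosidase, at 6.30 ± 1.61 CPM per kb, Tfeb at 5.07 ± 1.16 and Mcoln1, the gene of the lysosomal calcium channel TRPML1, at 4.32 ± 0.63, which also overlap.

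RAW264.7 cells had a flatter order. In control guide cells at 0 h (n = 3), Ctss led with 409 ± 28.4 CPM per kb (rank 70), before Ctsd at 373 ± 28.7, Psap at 356 ± 12.2 and Ctsz at 338 ± 10.8. Ctsh, the gene of the aminopeptidase cathepsin H, was at or near 0 in these cells: it lay between 0 and 0.132 CPM in all 18 RAW264.7 libraries, and between 270 and 600 CPM in the dendritic cell libraries. Ctsc, whose product cathepsin C activates serine proteases of granules, lay at 20.5 to 44 CPM in RAW264.7 cells and at 227 CPM or more in every dendritic cell library of the LPS experiment. The cell types were sequenced in separate experiments, so these levels are set side by side without a test.

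Resting dendritic cells also differed among replicates of the same label. Ctsl, the gene of cathepsin L, measured 2106, 1774 and 815 CPM in the WT 0 h libraries with higher numbers and 953, 605 and 718 CPM in those with lower numbers. In unstimulated TrifKO cells it measured 2926, 2272 and 2101 CPM, of which the first and the second lay above all WT values. With LPS, TrifKO replicate 3 lay at 822 CPM (2 h) and 860 CPM (4 h), while replicates 1 and 2 lay between 1986 and 3456 CPM. Ctsb, the gene of cathepsin B, ran from 1534 to 3987 CPM (median 2146) in WT cells at 0 h. Ctsl, Ctsb and Ctsd gave no call for LPS in WT cells at either time without the replicate block; with it Ctsb was called higher at 4 h (0.31, adjusted p = 0.0318, edgeR).

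In the fit without the replicate block, no member passed the threshold (adjusted p under 0.05, edgeR's quasi-likelihood test with Benjamini-Hochberg adjustment over all genes) between genotypes at rest. Of all genes tested, 0.209% passed in Suv39h1KO against wild type, 0.125% in IfnarKO, 0.222% in Suv39h1KO IfnarKO against IfnarKO, 0.16% in Suv39h1KO IfnarKO against Suv39h1KO, 0.0622% in MyD88KO against WT and 0% in TrifKO against WT. At an unadjusted p under 0.05 the members counted 4, 0, 3, 1, 1 and 2 in these comparisons, and DESeq2 called 1 member (Man2b1, higher) in Suv39h1KO cells and none in the others. The median log2 fold change of the 35 members was -0.16 in Suv39h1KO cells, with 28 below 0. It was 0.26 in TrifKO cells, with 33 above 0, where WT libraries of both number sets were the reference. The medians of all genes were 0.01 and -0.02. The members' median was 0.13 in IfnarKO cells (32 above 0) and -0.06 in MyD88KO cells (23 below 0). In Suv39h1KO IfnarKO cells it was -0.15 against IfnarKO (30 below 0) and 0.13 against Suv39h1KO (34 above 0). A shift to 1 side was thus not particular to 1 genotype. Lgmn, the gene of the asparaginyl endopeptidase legumain, measured 485, 471 and 643 CPM in wild-type and 318, 286 and 441 CPM in Suv39h1KO cells. All Suv39h1KO values lay below all wild-type values. Its log2 difference was -0.61, and it was the 1 member called lower with cohort numbers as a replicate block, as libraries of a cohort deviated together in that experiment.

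Promoter sequences from RefSeq (GRCm38.p6, 250 bases before to 50 after the start) were found for 28 of the 35 genes. The E-box core CACGTG, read on both strands (it is its own reverse complement), stood in 11 of these 28 genes (39.3%) and in 2187 of 27025 genes of the table (8.09%). The longer TCACGTGA, which contains that core, stood in 6 members (21.4%) and in 304 of all genes (1.12%). The median GC content was 55.2% in member windows and 52.4% in all windows. Of the 11 genes with the core, 3 were called higher and 1 lower after 4 h of LPS in WT cells. Of the 17 without it, these counts were 6 and 4. Among all genes tested, 30% were called higher and 35.1% lower. The upstream stretches of Lamp1, with the most copies of the core, of Atp6v0b and Mcoln1, which were called in opposite directions, and of Tfeb and Atp6v1d, the strongest fall and the most significant rise, are shown 5′ to 3′ on the gene's strand with the core in capitals.
Lamp1 (chr8:13158911-13159160, plus strand): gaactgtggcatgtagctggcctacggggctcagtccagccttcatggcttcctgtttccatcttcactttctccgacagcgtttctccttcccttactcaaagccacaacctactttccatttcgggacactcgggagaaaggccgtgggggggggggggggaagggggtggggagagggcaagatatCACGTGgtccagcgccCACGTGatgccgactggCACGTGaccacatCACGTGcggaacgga
Atp6v0b (chr4:117887334-117887579, minus strand): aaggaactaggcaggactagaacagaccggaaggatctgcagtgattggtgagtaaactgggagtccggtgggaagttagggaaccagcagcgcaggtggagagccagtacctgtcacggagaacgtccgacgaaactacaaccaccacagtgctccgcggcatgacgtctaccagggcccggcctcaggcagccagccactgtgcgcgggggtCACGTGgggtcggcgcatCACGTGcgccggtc
Mcoln1 (chr8:3500269-3500456, plus strand): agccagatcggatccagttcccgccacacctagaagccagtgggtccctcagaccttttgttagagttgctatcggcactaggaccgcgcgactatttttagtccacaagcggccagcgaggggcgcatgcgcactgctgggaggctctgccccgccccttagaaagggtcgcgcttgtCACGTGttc
Tfeb (chr17:47736787-47737029, plus strand): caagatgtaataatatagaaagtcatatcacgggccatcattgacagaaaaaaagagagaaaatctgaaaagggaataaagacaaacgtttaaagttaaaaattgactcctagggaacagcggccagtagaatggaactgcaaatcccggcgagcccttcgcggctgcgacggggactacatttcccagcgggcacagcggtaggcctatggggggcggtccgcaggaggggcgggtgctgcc
Atp6v1d (chr12:78861639-78861888, minus strand): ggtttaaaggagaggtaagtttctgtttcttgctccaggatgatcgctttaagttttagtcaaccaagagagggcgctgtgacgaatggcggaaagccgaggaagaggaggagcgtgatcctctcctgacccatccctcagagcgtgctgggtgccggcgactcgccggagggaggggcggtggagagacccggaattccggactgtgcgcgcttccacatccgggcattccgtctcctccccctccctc
The Lamp1 stretch holds 4 copies of the core, Atp6v0b holds 2 and Mcoln1 holds 1. Bases inside the annotated gene were left out, so the Mcoln1 stretch has 188 bases. Another core of Mcoln1, as TCACGTGA, lies outside its stretch, 45 bases before the RefSeq start. A match of letters describes the sequence and is not evidence of binding, and in the Tfeb and Atp6v1d stretches these letters were not found.

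LPS moved the lysosomal genes of WT dendritic cells in both directions. At 4 h, Tfeb and several hydrolase genes were lower, while several pump subunits, Ctsc, Ctsz and Lamp2 were higher. At 2 h, 8 members were called higher and 3 lower, 31.4% of the 35, where 45.9% of all genes passed (21.3% higher and 24.6% lower). At 4 h, 10 were called higher and 7 lower, 48.6%, where 65.1% of all genes passed (30% and 35.1%). These directions depend on scaling: with library totals in place of TMM factors the median of all genes moved to -0.43 at 2 h and -0.71 at 4 h (log2), and the members split into 0 higher and 18 lower at 2 h and 2 higher and 28 lower at 4 h. The changes below are therefore relative to the bulk of genes. Under library totals the 2 higher calls at 4 h were Atp6v0a1 and Atp6v1d, and all 7 lower calls remained. With the replicate block of set and cohort, within which libraries deviated together, 10 members were higher and 8 lower at 2 h, and 13 higher and 10 lower at 4 h. It added Ctsb, Ctss and Scarb2 to the higher and Gla, Hexa and Psap to the lower calls at 4 h. No share of all genes is set beside counts with the block or under library totals, here or below. Those counts therefore do not show whether the members differ from other genes.

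**Figure D1:**
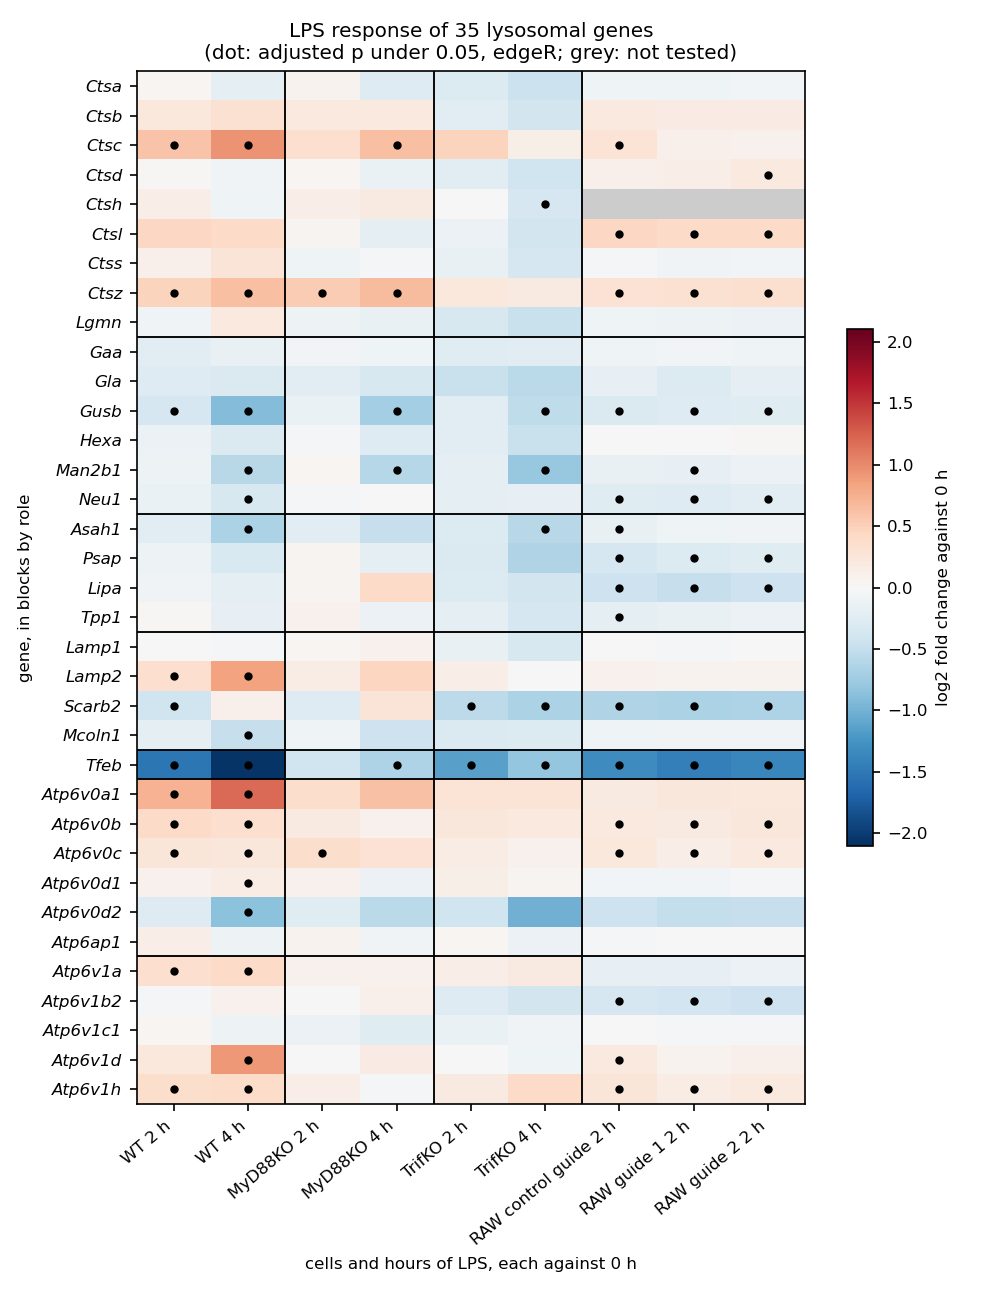
Log2 fold change of each of the 35 genes (vertical axis, in blocks by role) after LPS against 0 h, for each genotype or guide and time (horizontal axis); colour gives the log2 fold change, dots mark adjusted p under 0.05 in edgeR and grey marks Ctsh, not tested in RAW264.7 cells. Tfeb is the darkest blue in WT and RAW264.7 cells, and the pump subunits at the bottom are mostly red in WT cells at 4 h.

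Tfeb (chr17:47737030-47792419, plus strand) had the largest change of any member in WT cells. It measured 34.1, 36.7, 24.7, 32.0, 19.5 and 25.5 CPM at 0 h, 8.69, 8.38, 11.4, 9.30 and 12.5 CPM at 2 h, then 6.57, 7.13, 6.02, 8.94, 4.94 and 7.99 CPM at 4 h. The groups with LPS lay wholly below the unstimulated one. The fall was -1.51 ± 0.18 at 2 h (log2, SE; adjusted p = 8.88e-08, edgeR) and -2.05 ± 0.18 at 4 h (adjusted p = 3.39e-11), or 0.35 and 0.241 times the level at 0 h. Within the lower-numbered and higher-numbered libraries alone the 4 h fall was -1.81 and -2.27. Tfeb was also lower in RAW264.7 cells at 2 h, from 19.8, 17.8 and 22.8 CPM to 8.06, 7.16 and 8.81 CPM with the control guide, without overlap (-1.33 ± 0.11, adjusted p = 1.22e-08, edgeR).

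**Figure D2:**
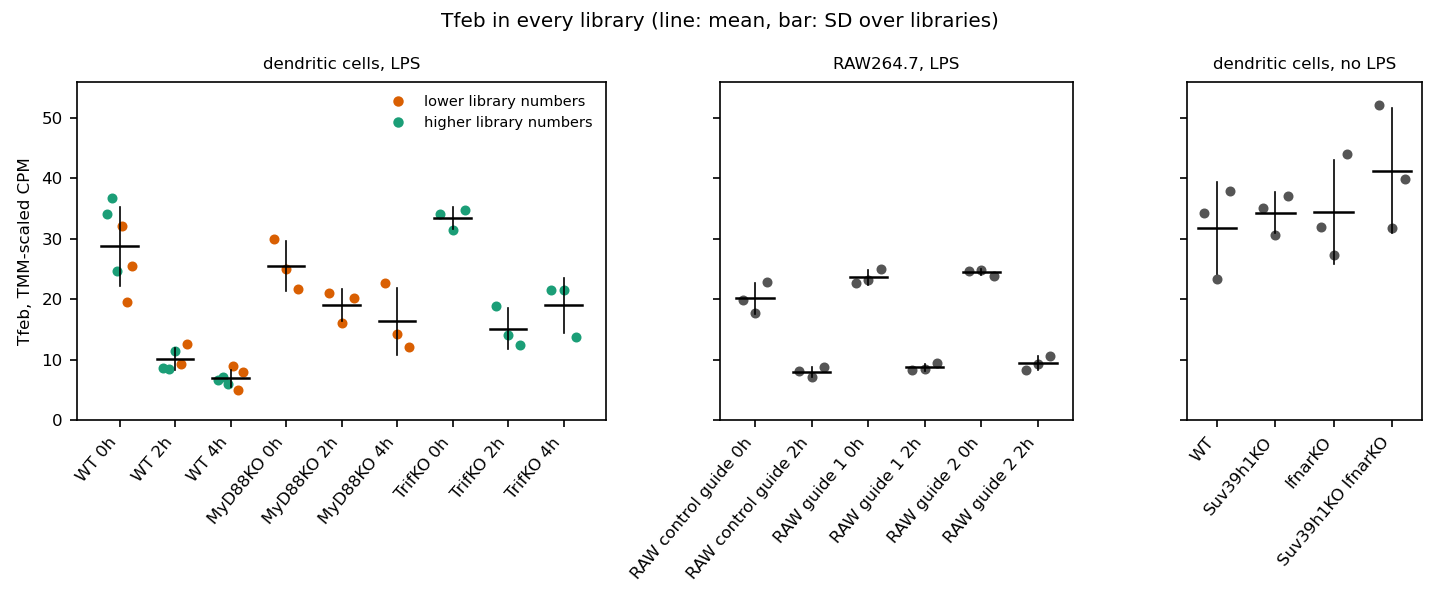
Tfeb level (vertical axis, TMM-scaled CPM) in every library of the 3 experiments by group (horizontal axis); points are libraries, coloured by library number set in the LPS experiment, lines are means and bars SD. WT values after LPS sit at or below 12.5 CPM, under every unstimulated WT value, and values of MyD88KO and TrifKO cells at 4 h run from 12.1 to 22.7 CPM.

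Among the proteases, Ctsc and Ctsz rose, and the abundant Ctsd, Ctss and Ctsb did not pass the test without the block. Of the 9 genes of cathepsins and legumain, 2 were higher and 0 lower at 4 h in WT cells. Among all genes, 30% were higher and 35.1% lower. The median was 0.27 against -0.07 over all genes. Ctsc (chr7:88278085-88310888, plus strand) went from 229 to 295 CPM at 0 h (median 242) to 320 to 656 CPM at 4 h (median 461). No value overlapped, and the libraries with higher numbers reached further, at 656, 636 and 530 CPM against 367, 320 and 392. Its rise was 0.95 ± 0.16 (log2, adjusted p = 4.07e-06, edgeR), or 1.26 in the higher-numbered and 0.56 in the lower-numbered set, and 0.28 (adjusted p = 0.0666) under library totals. Ctsz rose by 0.63 ± 0.12 (adjusted p = 3.51e-05), from 863 to 1356 CPM to 1500 to 1827 CPM, without overlap, and was -0.02 under library totals. Ctss ran from 1380 to 2177 CPM at 0 h (median 1752) and from 1593 to 2776 CPM at 4 h (median 1867); these ranges overlapped and the difference of 0.27 did not pass (adjusted p = 0.185), but did with the replicate block (0.25, adjusted p = 0.00971).

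Gusb, Man2b1 and Neu1, which act on sugars, and Asah1, which acts on ceramide, were lower. They are 3 of the 6 glycosidase genes (0 higher, median -0.33) and 1 of the 4 other hydrolase and cofactor genes (0 higher, median -0.25), where 35.1% of all genes were lower. Hexa, Gla, Gaa, Psap, Lipa and Tpp1 did not pass; with the replicate block Gla (-0.34), Hexa (-0.31) and Psap (-0.34) did. Gusb, the gene of beta-glucuronidase (chr5:129989011-130003049, minus strand), lay at 189 to 224 CPM at 0 h (median 198), 143 to 173 CPM at 2 h and 80.7 to 136 CPM at 4 h (median 106). Each time lay wholly below 0 h. The fall was -0.36 ± 0.13 at 2 h (adjusted p = 0.0223, edgeR), lost without either of WT 0 h replicate 1 or WT 2 h replicate 3 of the lower-numbered set (-0.32 and -0.33), and -0.92 ± 0.12 at 4 h (adjusted p = 1.71e-07). Asah1, the acid ceramidase gene, fell by 0.66 on the log2 scale (SE 0.14, adjusted p = 0.000178), from 191 to 246 CPM to 111 to 161 CPM, without overlap. Man2b1, a lysosomal alpha-mannosidase gene, fell by 0.59 (adjusted p = 0.00175), from 305 to 395 CPM to 143 to 267 CPM, again without overlap; in the lower-numbered set alone the value was -0.67 and did not pass (adjusted p = 0.0586). Neu1, the sialidase gene, fell by 0.34 (adjusted p = 0.0233) with overlapping ranges, and this call was lost without WT 4 h replicate 3 (-0.25), WT 0 h replicate 1 (-0.26) or WT 0 h replicate 2 (-0.27) of the higher-numbered set, and in each set alone (-0.19 and -0.47).

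Membrane proteins split within their class. Lamp2 (chrX:38401357-38456454, minus strand), which encodes a glycoprotein needed for fusion with autophagosomes and for chaperone-mediated autophagy, lay at 327 to 442 CPM at 0 h (median 385) and 568.4 to 887 CPM at 4 h (median 628). The 4 h values lay above all 0 h values. It rose by 0.85 ± 0.13 (adjusted p = 2.3e-06, edgeR), or 0.20 (adjusted p = 0.113) under library totals. Lamp1 did not pass, with 755 to 1125 CPM at 0 h and 755 to 1140 CPM at 4 h (-0.03, adjusted p = 0.894). Mcoln1 fell by 0.48 ± 0.13 on the log2 scale (adjusted p = 0.00195), from 26.3 to 39 CPM to 15.7 to 28.7 CPM, with overlap (-0.48 with adjusted p = 0.0587 in the higher-numbered set alone). Scarb2, which encodes LIMP-2, the receptor that carries glucocerebrosidase to lysosomes (chr5:92441314-92506833, minus strand), was lower at 2 h. It measured 184 to 208 CPM at 0 h, 131 to 159 CPM at 2 h without overlap (-0.42 ± 0.08, adjusted p = 0.000139), and 187 to 231 CPM at 4 h, which did not pass without the replicate block and was called higher with it (0.11, adjusted p = 0.0398).

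**Figure D3:**
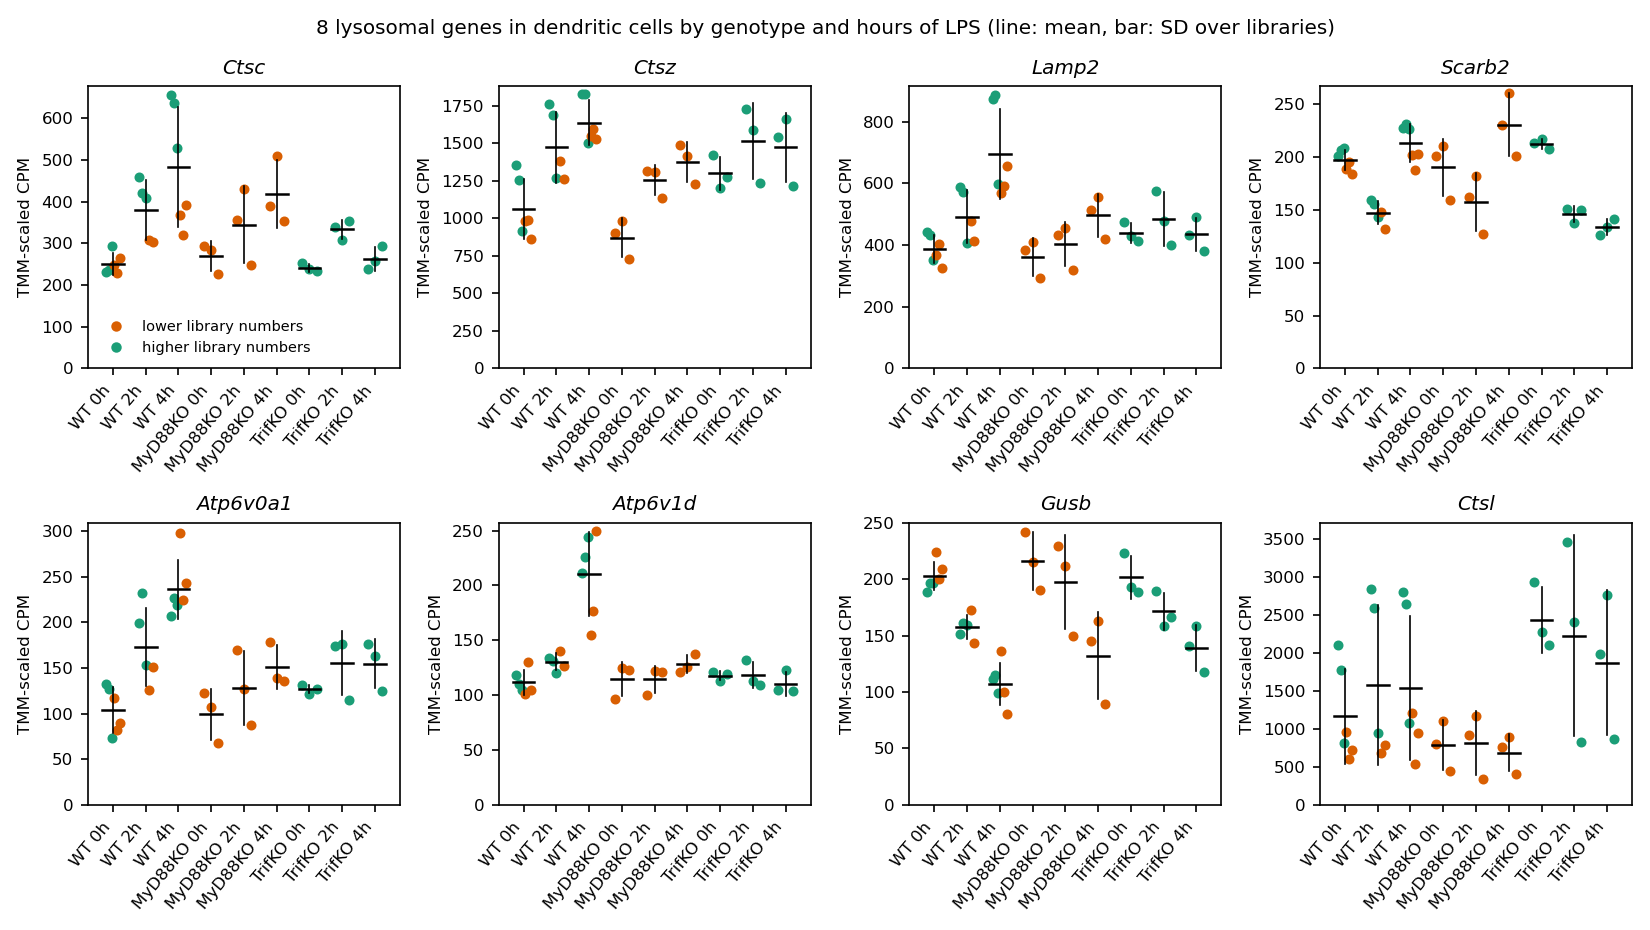
Level of 8 members (vertical axes, TMM-scaled CPM, from 0) in every dendritic cell library of the LPS experiment by genotype and time (horizontal axes); points are libraries coloured by library number set, lines are means and bars SD. Ctsc, Lamp2, Atp6v0a1 and Atp6v1d are highest in WT cells at 4 h, Gusb falls in all 3 genotypes at 4 h, and Ctsl spreads widely within each group.

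Most pump subunit genes that passed were higher. Of the 6 V0 and accessory genes, 4 were higher and 1 lower in WT cells at 4 h (median 0.19). Of the 5 V1 genes, 3 were higher and 0 lower (median 0.38). Among all genes, 30% were higher and 35.1% lower. Under library totals Atp6v0b, Atp6v0c, Atp6v0d1, Atp6v1a and Atp6v1h turned to -0.29, -0.40, -0.49, -0.25 and -0.26. Atp6v0a1, which encodes a form of the large a subunit (chr11:101009452-101063719, plus strand), lay at 73.5 to 132 CPM at 0 h (median 104), 126 to 233 CPM at 2 h and 207 to 298 CPM at 4 h (median 225). The 4 h values lay above all 0 h values, and the 2 h values overlapped them. It rose by 1.19 ± 0.18 at 4 h (adjusted p = 9.85e-07, edgeR), the largest rise of a member, and by 0.55 (adjusted p = 0.0039) under library totals. Atp6v1d, which encodes a subunit of the central rotor (chr12:78840725-78861638, minus strand), lay at 101 to 131 CPM at 0 h, 120 to 140 CPM at 2 h and 155 to 250 CPM at 4 h. Its rise of 0.92 ± 0.10 at 4 h (adjusted p = 1.91e-09) came without overlap, whereas at 2 h it did not pass (0.22).

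Atp6v0d2, which encodes the d2 form of the V0 stalk that is abundant in osteoclasts and macrophages (chr4:19876841-19922605, minus strand), moved against the other V0 genes that passed. It measured 192 to 398 CPM at 0 h (median 266) and 77.3 to 223 CPM at 4 h (median 143), ranges that overlap (-0.87 ± 0.30, adjusted p = 0.0123, edgeR; -0.98 with adjusted p = 0.0813 in the lower-numbered set alone). Its share of the 2 d forms, per kilobase, was 46.7% ± 7.94 (SD, n = 6) at 0 h, 39.96% ± 9.91 (n = 5) at 2 h and 30.1% ± 8.05 (n = 6) at 4 h in WT cells. In TrifKO cells it was 55.9% ± 2.67 (n = 3) at 0 h and 37.5% ± 3.15 at 4 h, without overlap (57.3% and 57.6% at 0 h without replicate 3), and in MyD88KO cells 48.3% ± 10.2 and 40.8% ± 8.77, with overlap. RAW264.7 control guide cells had 22.3% ± 3.81 at 0 h and 18.1% ± 4.09 at 2 h. Of the a forms, Tcirg1 (a3) held 72.3% ± 5.39 in WT cells at 0 h and 84.1% ± 0.71 in RAW264.7 cells, and Atp6v0a1 held 14.9% ± 1.97 and 5.06% ± 0.24. These shares are descriptions and were given no test.

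**Figure D4:**
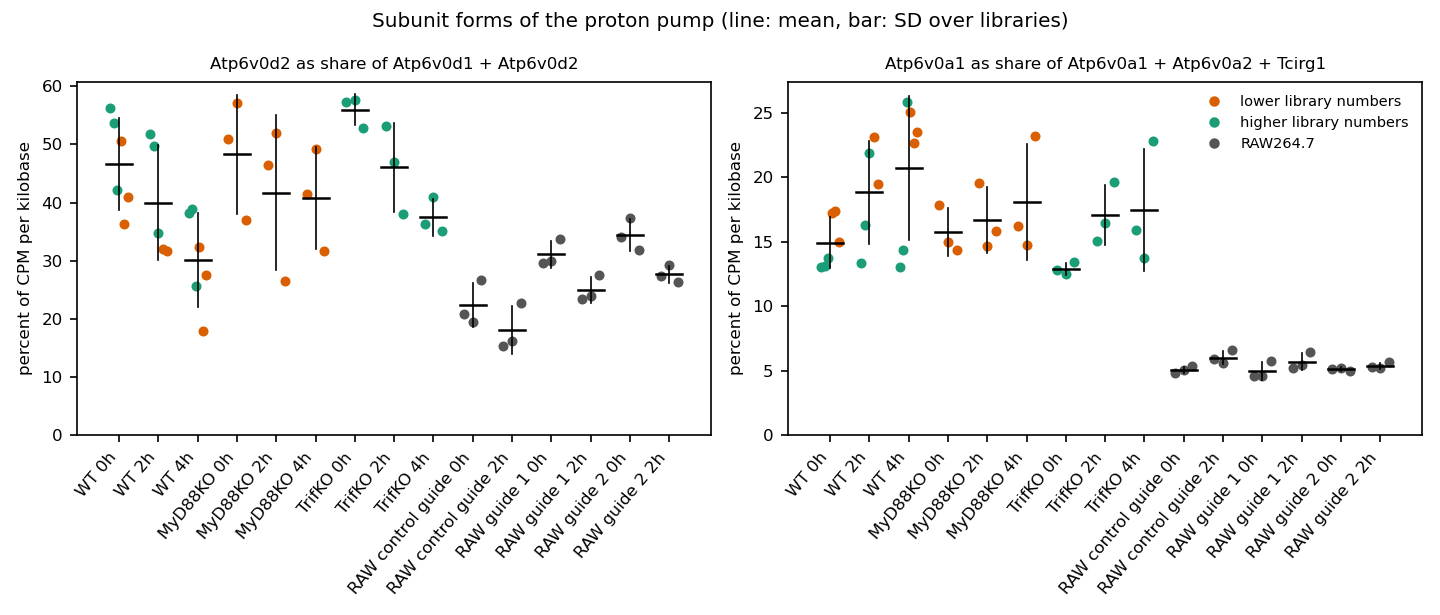
Share of Atp6v0d2 among the d forms (left) and of Atp6v0a1 among the a forms of the pump (right), in percent of CPM per kilobase (vertical axes), by group and time (horizontal axes); points are libraries, lines are means and bars SD. The mean d2 share of WT cells goes from 46.7% at 0 h to 30.1% at 4 h, and the mean a1 share of RAW264.7 control guide cells is 5.06% at 0 h.

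In MyD88KO cells few members passed in the fit without the replicate block. At 2 h, 2 were called higher and 0 lower (5.71%, against 16.1% of all genes, 8.83% higher and 7.24% lower), and at 4 h 2 and 3 (14.3% against 34.1%, 17.1% and 17%); with the replicate block, in which MyD88KO libraries of a cohort deviated together, the counts were 2 and 2 at 2 h and 6 and 9 at 4 h. Under library totals they were 0 higher and 10 lower at 4 h. Ctsz rose from 902, 981 and 728 CPM to 1312, 1311 and 1138 CPM at 2 h, then 1488, 1416 and 1229 CPM at 4 h, without overlap (0.53 ± 0.17, adjusted p = 0.0291, and 0.66 ± 0.17, adjusted p = 0.0028, edgeR). Without MyD88KO 2 h replicate 1 or 0 h replicate 1 no member passed at 2 h. The 2 h call of Ctsz was lost without MyD88KO 2 h replicate 1 (0.49) or 2 (0.49), or 0 h replicate 1 (0.55) or 3 (0.41). Gusb fell from 242, 215 and 191 CPM to 145, 163 and 89.0 CPM at 4 h, without overlap (-0.71 ± 0.17, adjusted p = 0.00217). Ctsc rose to 390, 509 and 354 CPM from 295, 284 and 227 CPM (0.64 ± 0.22, adjusted p = 0.0246), a call lost without 0 h replicate 3 (0.53) or 4 h replicate 2 (0.47). Tfeb measured 29.9, 25 and 21.7 CPM at 0 h, 21, 16.1 and 20.1 CPM at 2 h, then 22.7, 14.3 and 12.1 CPM at 4 h. The 4 h values overlap those at 0 h, and the fall of -0.64 ± 0.24 (adjusted p = 0.0383) was lost without 0 h replicate 1 (-0.51) or 2 (-0.66) or without 4 h replicate 2 (-0.56) or 3 (-0.47).

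In TrifKO cells, the members that passed were all lower, also under RLE scaling and library totals; a replicate block, although the number does not pair these libraries, gave 2 higher and 9 lower at 2 h and 2 and 19 at 4 h, with Atp6v0b higher at both times, Ctsc at 2 h and Atp6v1h at 4 h. At 2 h, 0 were higher and 2 lower (5.71%, against 20.7% of all genes, 11.3% higher and 9.41% lower), and at 4 h 0 and 6 (17.1% against 25.9%, 14.4% and 11.5%), with a median of -0.36 over the members and 0.00 over all genes. These calls were kept without TrifKO 0 h replicate 3, and 1 higher and 2 lower were called at 4 h without TrifKO 4 h replicate 3. Under library totals 9 were lower at 2 h and 15 at 4 h. Scarb2 measured 213, 217 and 207 CPM at 0 h, 151, 137 and 149 CPM at 2 h, then 126, 134 and 141 CPM at 4 h. The libraries with LPS lay well below, and at 4 h they did not reach the 0 h range (-0.67 ± 0.11, adjusted p = 7.04e-05, edgeR; 0.000374 without TrifKO 0 h replicate 3). Tfeb measured 34.1, 31.4 and 34.8 CPM at 0 h, 18.9, 14.1 and 12.4 CPM at 2 h, then 21.6, 21.6 and 13.8 CPM at 4 h, without overlap (-1.14 ± 0.24, adjusted p = 0.000963, and -0.82 ± 0.24, adjusted p = 0.0124). The 4 h call was lost without TrifKO 4 h replicate 3 (-0.63). Man2b1 fell from 417, 387 and 357 CPM to 230, 260 and 183 CPM at 4 h, without overlap (-0.79 ± 0.22, adjusted p = 0.00948), and without TrifKO 4 h replicate 3 the value was -0.66 and did not pass. Asah1, Gusb and Ctsh were the other 3 lower members (-0.58, -0.53 and -0.36); Asah1 was lost without TrifKO 4 h replicate 1 (-0.62) or 3 (-0.44) or 0 h replicate 1 (-0.54) or 2 (-0.57), and Gusb without 0 h replicate 1 (-0.45) or 4 h replicate 3 (-0.43).

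The genotypes were then compared by the difference between their LPS responses, which share the WT libraries as reference. At 2 h no member differed in MyD88KO or TrifKO cells (0.442% and 1.38% of all genes did; at an unadjusted p under 0.05 the members counted 1 and 0, and DESeq2 called 1, Tfeb, and 0). With the replicate block, Tfeb differed in MyD88KO cells at 2 h. At 4 h, 1 member was higher and 1 lower in MyD88KO minus WT (5.71%, against 6.86% of all genes, 2.47% higher and 4.39% lower; 2 and 4 with the replicate block, and 2 and 2 without MyD88KO 4 h replicate 2), and 1 and 5 in TrifKO minus WT (17.1%, against 18.3%, 8.99% and 9.3%). Under library totals these splits were 4 and 1, and 7 and 2.

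Tfeb fell less in both knockouts. The 4 h response was smaller than the WT fall of -2.05 by 1.41 ± 0.30 in MyD88KO cells (adjusted p = 0.00381, edgeR) and by 1.24 ± 0.30 in TrifKO cells (adjusted p = 0.00362; 0.00965 without TrifKO 0 h replicate 3). Against the WT libraries of their own number set alone, the differences were 1.19 (adjusted p = 0.211) in MyD88KO and 1.45 (adjusted p = 0.00172) in TrifKO cells. The WT responses in Tfeb were thus -1.81 and -2.27 in the sets compared, and the MyD88KO difference passed with all WT libraries and not with those of its own set.

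Atp6v1d differed from the WT response in both knockouts. It measured 122, 126 and 137 CPM at 4 h in MyD88KO cells after 96.4, 124 and 123 CPM at 0 h, and 104, 123 and 104 CPM in TrifKO cells after 121, 113 and 119 CPM. Both knockouts overlap their own 0 h values, and all lie below the WT range at 4 h of 155 to 250 CPM. The difference from the WT response was -0.75 ± 0.17 in MyD88KO (adjusted p = 0.00566, edgeR; -0.61 with adjusted p = 0.30 within the set) and -1.01 ± 0.17 in TrifKO cells (adjusted p = 6.33e-05; 1.85e-05 within the set, and 0.000312 without TrifKO 0 h replicate 3).

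Lamp2 and Scarb2 were also lower in the TrifKO response. The 4 h TrifKO differences of Tfeb, Atp6v1d, Lamp2 and Scarb2 were kept with any 1 of the 18 libraries compared left out. These include TrifKO 4 h replicate 3. The largest adjusted p were 0.0212, 0.000505, 0.0347 and 0.000749 (edgeR). Lamp2 measured 476, 428 and 414 CPM at 0 h, then 432, 491 and 382 CPM at 4 h in TrifKO cells, with overlap, against the rise in WT cells (-0.86 ± 0.23, adjusted p = 0.00863, edgeR; 0.0151 without TrifKO 0 h replicate 3; -0.44, adjusted p = 0.0727, under library totals). Lamp2, like Gla and Atp6ap1, lies on the X chromosome, and the part of the Xist differences in its result was not tested. Scarb2 differed by -0.78 ± 0.14 (adjusted p = 0.000149; 9.91e-06 within the set, and 0.000488 without TrifKO 0 h replicate 3). Ctsc measured 253, 237 and 235 CPM at 0 h, then 239, 257 and 295 CPM at 4 h in TrifKO cells, with overlap, and differed by -0.82 ± 0.27 (adjusted p = 0.0297). That call was lost without any 1 of the TrifKO 0 h libraries (-0.79, -0.84 and -0.84, the last without replicate 3), without TrifKO 4 h replicate 1 or 2 (-0.81 and -0.81), without WT 4 h replicate 1 or 2 of the higher-numbered set (-0.72 and -0.73), and under library totals (-0.39). Atp6v0a1 differed by -0.90 ± 0.30 (adjusted p = 0.0374), lost without any 1 of the TrifKO 0 h libraries (-0.87, -0.93 and -0.90), without TrifKO 4 h replicate 2 or 3 (-0.94 and -0.77), without WT 4 h replicate 1 or 0 h replicate 2 or 3 of the lower-numbered set (-0.82, -0.84 and -0.90) or 0 h replicate 3 of the higher-numbered set (-0.86), within the set (-0.69, adjusted p = 0.12) and under library totals (-0.49).

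Over all dendritic cell comparisons, 19 members passed at least once in the fit without the block and 16 did not: Ctsa, Ctsb, Ctsd, Ctsl, Ctss, Lgmn, Gaa, Gla, Hexa, Psap, Lipa, Tpp1, Lamp1, Atp6ap1, Atp6v1b2 and Atp6v1c1. Their log2 fold changes in WT cells at 4 h ran from -0.31 to 0.40. No share of all genes passing at least once is set beside the counts of this paragraph. In WT cells at 4 h alone, 65.1% of all genes passed, against 48.6% of the members. With the replicate block in WT, MyD88KO and unstimulated cells, 9 of the 16 passed in some comparison; Ctsa, Ctsd, Ctsl, Lipa, Tpp1, Lamp1 and Atp6v1b2 were the 7 that did not. With the RAW264.7 comparisons included, 27 of the 35 passed at least once; Ctsa, Ctss, Gla, Hexa, Lamp1, Lgmn, Atp6ap1 and Atp6v1c1 were the 8 that did not, and of these 2 (Ctsa and Lamp1) also gave no call with that block.

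Other genes of the lysosomal pathway also went in both directions in WT cells at 4 h, with shares called of 63.6% (hydrolases), 70% (pump) and 56.5% (membrane and transport) near the 65.1% of all genes. Of 33 further hydrolase genes, 2 were higher (6.06%, against 30% of all genes) and 19 lower (57.6%, against 35.1%): Sgsh, the gene of a heparan sulfatase, fell by 4.00 on the log2 scale and Manba, a beta-mannosidase gene, by 1.64, while Ids, the iduronate sulfatase gene, rose by 0.78 and Scpep1 by 0.44 (0.12 and -0.21 under library totals, where 0 were higher and 29 lower). Of 10 further pump subunit genes tested, 4 were higher and 3 lower (Tcirg1 0.77, Atp6v1e1 0.74; Atp6v0e2 -2.21, Atp6v1g2 -0.94), and under library totals 0 and 7. Of 23 further membrane and transport genes, 6 were higher and 7 lower, with the peptide transporter gene Slc15a3 (1.13) and the channel gene Mcoln2 (1.13) among the first and the amino acid transporter gene Slc36a1 (-2.69) and the channel gene Tpcn1 (-2.20) among the second; under library totals it was 2 and 14.

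Of the relatives of Tfeb, Mitf and Tfec were higher and Tfe3 depended on scaling. Of 18 genes of the MiT/TFE family and of mTORC1 control, 5 were higher and 7 lower in WT cells at 4 h (66.7%, near the 65.1% of all genes), or 2 and 14 under library totals. Mitf rose by 1.99 ± 0.22 and Tfec by 1.37 ± 0.26 (log2; adjusted p = 4.25e-09 and 3.22e-05, edgeR; 1.35 and 0.76 under library totals), both genes of the same factor family as Tfeb, while Tfe3 was at 0.09 and did not pass, and under library totals was called lower (-0.55, adjusted p = 1.21e-05). Ppargc1a fell by 3.20 and Rragb, a Rag GTPase gene, by 2.69. Of 9 genes of mannose 6-phosphate sorting, which routes new hydrolases to lysosomes, 3 were higher and 2 lower (55.6%, against 65.1% of all genes; 2 and 7 under library totals): the receptor gene M6pr rose by 1.03 and Gnptab by 1.02, and Nagpa fell by 0.76 and Gnptg by 0.20. Of 10 cathepsin inhibitor genes tested, 5 were higher and 0 lower (50%, against 65.1% of all genes; 2 and 2 under library totals), led by Serpina3g at 3.34 and Cst7 at 2.48.

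In RAW264.7 cells, 2 h of LPS changed the members in both directions. Of the 34 members tested (Ctsh was removed by the filter on low counts), 7 were higher and 9 lower with the control guide (47.1%, against 51.6% of all genes, 26.3% higher and 25.3% lower). They were 5 and 8 with guide 1 (38.2%, against 51.3%, 26.2% and 25.1%) and 6 and 7 with guide 2 (38.2%, against 50.8%, 26.3% and 24.5%). Under library totals the splits were 1 and 20, 2 and 22, and 2 and 20. The same 5 genes (Ctsl, Ctsz, Atp6v0b, Atp6v0c and Atp6v1h) were higher and the same 7 (Tfeb, Scarb2, Lipa, Psap, Atp6v1b2, Gusb and Neu1) lower in all 3 cultures, each against its own 0 h libraries, where 21.6% of all genes were higher and 20.1% lower in all 3. With guide 1, the Atp6v0c call was lost with any 1 library left out other than 2 h replicate 2 (0.13 to 0.15), and the Atp6v1h call without 0 h replicate 2 or 2 h replicate 1 or 3 (0.12 to 0.16); both were below 0 under library totals (-0.033 and -0.018). With guide 2, the Neu1 call was lost without 0 h replicate 1 (-0.17) or 2 h replicate 3 (-0.18). Scarb2 fell from 81.8, 78.4 and 92.8 CPM to 53.2, 50.2 and 60.4 CPM with the control guide, without overlap (-0.63 ± 0.09, adjusted p = 1.39e-05, edgeR). Ctsl rose from 567.7, 543 and 530.4 CPM to 739, 730 and 742 CPM, without overlap (0.43 ± 0.08, adjusted p = 0.000206). Lipa, the acid lipase gene, fell by 0.44 ± 0.12 (adjusted p = 0.00557), with 397, 419 and 542 CPM before and 314, 301 and 388 CPM after LPS, the third library high at both times. Guide 1 and guide 2 gave -1.43 and -1.38 for Tfeb, -0.67 and -0.65 for Scarb2, and 0.40 and 0.40 for Ctsl.

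Against WT dendritic cells at 2 h, the control guide cells shared 5 higher calls (62.5% of the 8 in dendritic cells and 71.4% of the 7 in RAW264.7 cells) and 3 lower calls (100% of 3 and 33.3% of 9). Tfeb, Scarb2 and Gusb were the shared lower genes, and Ctsc, Ctsz, Atp6v0b, Atp6v0c and Atp6v1h the shared higher ones. No overlap over all genes is set beside these shares, so they are not a result about the members. Of all genes, 21.3% were higher and 24.6% lower in the dendritic cells, and 26.3% and 25.3% in the control guide cells. The Ctsc call in control guide cells was lost without 0 h replicate 2 (0.25) or 2 h replicate 1 (0.29) or 3 (0.27). No member differed between guides in the response itself (0.00765% of all genes for guide 1 and 0% for guide 2; 0 and 0 members at an unadjusted p under 0.05, and 0 and 0 by DESeq2).

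Before LPS, the guides did differ. With guide 2, 7 of 34 members were higher and 0 lower than with the control guide (20.6%, against 4.53% of all genes, 2.58% higher and 1.94% lower), and all 34 fold changes were above 0, with a median of 0.17 (log2) against 0.00 over all genes. With guide 1, 2 were higher and 0 lower (5.88%, against 2.24%, 1.05% and 1.19%; DESeq2 called 5 higher and 2 lower, the latter Ctsc and Lgmn), and 31 of 34 were above 0, with a median of 0.12. Both comparisons share the control guide libraries. Atp6v0d2 measured 82.1, 90.1 and 71.8 CPM with guide 2, 63.5, 64.5 and 82.2 CPM with guide 1 and 36.5, 34.4 and 61.1 CPM with the control guide. Both guides lay above the control values without overlap (0.89 ± 0.22, adjusted p = 0.0269, edgeR, for guide 2; 0.67, adjusted p = 0.137, for guide 1). Neu1 (chr17:34931253-34935953, plus strand) measured 47.6, 43.6 and 38.8 CPM with guide 2, 39.3, 42.3 and 43 CPM with guide 1 and 31.8, 32.5 and 33.4 CPM with the control guide, without overlap (0.42 ± 0.07, adjusted p = 0.00358, and 0.35 ± 0.08, adjusted p = 0.0158). Ctsb measured 2345, 2376 and 1885 CPM with guide 2 and 1660, 1620 and 1813 CPM with the control guide, again without overlap (0.38 ± 0.08, adjusted p = 0.0153). Gaa was higher with both guides (0.29, adjusted p = 0.0162, and 0.27, adjusted p = 0.0358).

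These guide counts rest on few libraries. Without guide 2 replicate 1 or 2, or without control guide replicate 1 or 2, 1 member passed for guide 2, and it was 10 at most when other libraries were left out. For guide 1 the count was 0 to 3. The Atp6v0d2 call was lost in each of those 4 cases, with values from 0.74 to 0.88, as was that of Ctsb (0.32 to 0.36) and of Gaa with guide 2 (0.24 to 0.29), and Neu1 with guide 2 was kept in all 6. With guide 1, Gaa was lost with any 1 of the 6 libraries left out (0.25 to 0.30), and Neu1 without guide 1 replicate 2 or 3 or control guide replicate 1 or 2 (0.33 to 0.35). Of the 33 further hydrolase genes, 6 were higher and 0 lower with guide 2, where 2.58% of all genes were higher and 1.94% lower. Ctsk, the cathepsin K gene, was named after its values were seen. It measured 532, 534 and 367 CPM with guide 2 and 103, 104 and 134 CPM with the control guide (2.07 ± 0.16, adjusted p = 2.31e-06, edgeR).

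**Figure D5:**
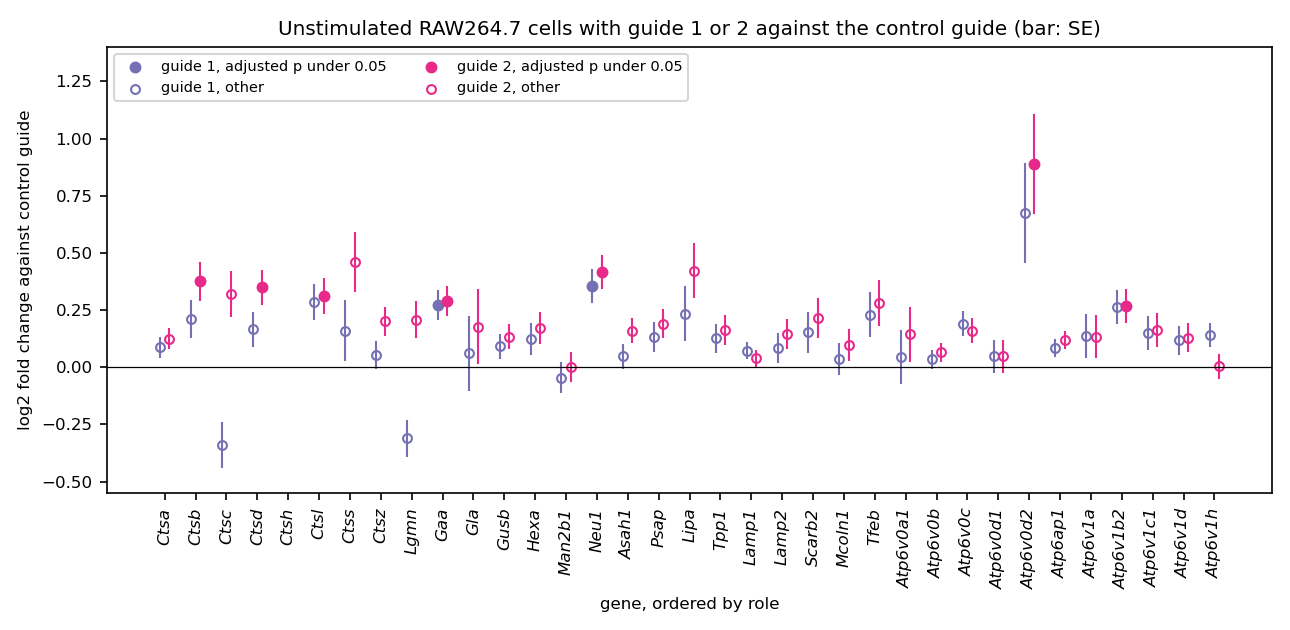
Log2 difference of unstimulated RAW264.7 cells with guide 1 or guide 2 from the control guide (vertical axis) for each member by role (horizontal axis); points are edgeR estimates, bars SE, filled points adjusted p under 0.05, and Ctsh was not tested. All guide 2 points lie at or above 0, and Atp6v0d2 lies highest with both guides.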

How the data were processed

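The analysis starts from the deposited gene counts, made by the authors from polyA RNA (TruSeq Stranded, per the labels' protocols) with STAR and HOMER on mm10 and used DESeq2, per the submitters' processing notes; versions, strand setting and annotation are not given in the sources used here. All 65 libraries in 19 groups were used, and 0 columns were without a sample. Each of the 3 experiments was fitted separately with edgeR 4.0.16 in R 4.3.3 (filterByExpr, TMM factors, quasi-likelihood test, Benjamini-Hochberg over all genes tested, threshold 0.05). The fit was also run on simulated counts drawn independently for each library. Those counts had no cohort pairing and no close pairs of libraries, so that run cannot speak for these features of the data. Levels are TMM-scaled CPM; per-kilobase levels use GENCODE merged exons, whose annotation may differ from the authors' own. DESeq2 1.42.0, RLE scaling, library totals (chosen after seeing the data), no filter, only the groups compared, library sets, each library left out and a replicate block were alternatives.

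The members and lists were chosen with earlier results of these data known. Values per library are given for the 4 members that rose most and the 4 that fell most in WT cells at 4 h, up to 3 in other comparisons, and for Tfeb, Mcoln1, Lamp1, Ctss and Atp6v0d2; pathway lists give up to 2 genes a direction at 4 h. Same-numbered libraries deviated together in WT (mean residual correlation 0.389 and 0.504 in the sets), MyD88KO (0.589) and unstimulated cells (0.451). From these data they were taken as paired, but only in the alternative fit with the replicate block. Counts, SE and p-values in the text come from the fit that leaves this pairing out, unless the block or another alternative is named. The number did not pair TrifKO libraries (0.129, with pairs from -0.264 to 0.739). It paired RAW264.7 libraries weakly (0.123, from 0.00341 to 0.342, against a mean of -0.0613 in other pairs). Replicate pairs all differed beyond sampling noise (chi-square per gene 5.08 or more in 88 pairs, median 131), and all were kept as separate samples. Replicates 1 and 2 of the higher-numbered WT set differed by only 16.9, 10.5 and 13.6 at 0 h, 2 h and 4 h. From replicate 3 of that set they differed by 131 to 264. TrifKO replicates 1 and 2 differed by 21.1, 25.7 and 25.6 at these times. At 0 h TrifKO replicate 3 differed from replicates 1 and 2 by only 20.9 and 6.53, and at 2 h and 4 h by 194 to 253. The TrifKO libraries were thus alike at 0 h, while replicate 3 stood apart at 2 h and 4 h. The labels do not say whether such close pairs are separate animals, and their part in the p-values was not tested.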

Additional observations from a re-analysis of the deposited data

Results flagged for a closer look

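Among 140 tests of a difference between knockout and WT responses to LPS in the members, 8 passed (adjusted p under 0.05, edgeR, Benjamini-Hochberg over all genes), all at 4 h. In 0 of 105 groups of 4 to 10 values did a library lie far from the others. Only WT cells of the LPS experiment had groups of that size, so knockout and RAW264.7 groups of 3 libraries were not tested. In MyD88KO cells the response of Tfeb was higher than in WT by 1.41 (log2, adjusted p = 0.00381) and that of Atp6v1d differed by -0.75 (adjusted p = 0.00566). In TrifKO cells the response of Tfeb was higher by 1.24 (adjusted p = 0.00362), and those of Atp6v1d (-1.01, adjusted p = 6.33e-05), Atp6v0a1 (-0.90, adjusted p = 0.0374), Lamp2 (-0.86, adjusted p = 0.00863), Ctsc (-0.82, adjusted p = 0.0297) and Scarb2 (-0.78, adjusted p = 0.000149) were lower.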

How the results depend on the processing

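Scaling moved most counts of called members. With library totals they were 18 and 30 in WT cells at 2 h and 4 h, 1 and 10 in MyD88KO, 9 and 15 in TrifKO, 5 for MyD88KO minus WT at 4 h, and 24 and 22 for LPS with guides 1 and 2. This setting turned 12 called gene values: Lamp2 -0.042, Atp6v0c -0.12, Atp6v1a -0.031 and Atp6v1h -0.011 in WT at 2 h; Ctsz -0.017, Atp6v0b -0.29, Atp6v0c -0.40, Atp6v0d1 -0.49, Atp6v1a -0.25 and Atp6v1h -0.26 in WT at 4 h; Atp6v0c -0.033 and Atp6v1h -0.018 with guide 1. With the replicate block the counts were 18 in WT at 2 h, 4 and 15 in MyD88KO, and 11 and 21 in TrifKO. They were 1 and 6 for MyD88KO minus WT at 2 h and 4 h, 15 for TrifKO minus WT at 4 h, and 1 in Suv39h1KO cells. For guides 1 and 2 against the control guide they were 9 (7 higher, with Ctsc and Lgmn lower) and 21 (all higher). For LPS in RAW264.7 cells, 8 were higher and 14 lower with the control guide, 6 and 13 with guide 1, and 7 and 12 with guide 2. TrifKO libraries share only a number (5 of 9 same-numbered pairs correlated above 0.1), and RAW264.7 libraries were weakly paired (25 of 45). DESeq2 called 9 in MyD88KO at 4 h, 1 for MyD88KO minus WT at 2 h, 1 in Suv39h1KO cells, and 7 and 12 for guides 1 and 2. Without the filter the counts were 1 in MyD88KO at 2 h and 5 for guide 1. With only the groups compared they were 0 and 2 in MyD88KO, 10 in TrifKO at 4 h and 8 for guide 1. The lower-numbered WT set alone gave 4 and the higher 7 at 2 h, and same-set WT libraries gave 0 for MyD88KO minus WT at 4 h. The cause was not tested. Leaving out 1 library gave 9 to 12 and 16 to 18 in WT, 0 to 2 and 4 to 6 in MyD88KO, 2 to 2 and 3 to 6 in TrifKO, 2 to 4 and 4 to 6 for the response differences of MyD88KO and TrifKO at 4 h, 13 to 17, 10 to 13 and 12 to 13 for LPS with the control guide, guide 1 and guide 2, 0 to 3 and 1 to 10 for guides 1 and 2 at rest, and 0 to 0 for the others. Of 865 single-gene values with a library left out, 747 stayed past the threshold, 118 did not and 0 turned direction. Counts were at least 216 per library for every member in dendritic cells; in RAW264.7 cells Ctsh was too low to test.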
